A study of Arabidopsis thaliana with 12 samples.

Results

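The plastid genome of Arabidopsis carries, beside the genes of photosynthesis, the genes its own gene expression needs and a few housekeeping genes, and it is these that are described here in wildtype seedlings and in seedlings over-expressing Zat12, with and without hydrogen peroxide. The members were the probe sets (groups of short array probes for 1 transcript) whose single gene lies on the plastid genome and has a symbol beginning with rpo, rps, rpl or ycf, or is matK, accD, clpP, cemA or ccsA. Of the 22746 probe sets that are not controls, 26 met this rule, out of 69 with a single plastid gene. The choice used names and genome position only. They were 4 subunits of the plastid RNA polymerase (rpo), 8 proteins of the small (rps) and 7 of the large (rpl) ribosomal subunit, and 7 others, namely matK, accD, clpP, cemA, ccsA, ycf3 and ycf4. A further 7 probe sets matched both copies of a gene in the inverted repeat, had no single gene and were left out.

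The 12 arrays formed 4 groups of 3, namely wildtype and Zat12 seedlings, each either untreated or treated for 1 hour with 20 mM H2O2. Wildtype was Columbia, and Zat12 was a transgenic Columbia that makes the zinc finger protein Zat12 (At5g59820) constitutively from the 35S-CaMV promoter, which is active in most plant tissues; whether it was a single line was not given in the sources used here. All groups were whole seedlings, 5 days old, from liquid MS culture, and total RNA was labelled with biotin and read on ATH1 arrays. In such bulk RNA, fewer cells of a type and less RNA per cell cannot be told apart.

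Plastids descend from cyanobacteria and keep a bacterial type of RNA polymerase and ribosome. Most subunits of the ribosome, and the factors that guide the polymerase, are encoded in the nucleus and imported, while a core remains in the plastid genome. A second, phage-type polymerase from the nucleus reads the rpoB-rpoC1-rpoC2 cluster and accD, among others, and many plastid genes are transcribed together in long clusters that are then cut and spliced. Plastid transcripts lack the long, stable poly(A) tail of nuclear mRNA, and short tails mark them for decay.

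Values are the deposited linear signals, which have no physical unit, and changes are differences of log2(signal + 3) from 1 limma fit of the 4 groups, with a call where the p adjusted by Benjamini-Hochberg over all 13647 probe sets tested was below 0.05. The array of Zat12 replicate 2 had no value for 8 members, so untreated Zat12 rests on 2 arrays for them. Of the 26 members, 22 passed the filter on low signal, and rpoB, rps14, rps15 and ycf3 did not. Because the filter uses the mean over all arrays, a member can pass through the group in which it is high, and counts over the 22 are read with that in mind. The labels do not say whether replicates were separate cultures, so the p-values rest on a spread between arrays that may be only technical. The annotation used here names no probe set for ZAT12, and the transgene itself was not analysed here. Of the markers listed, 1 of 5 for green tissue (LHCB4.3, 121 to 256 on the 12 arrays), 2 of 3 for root epidermis (PRX44, 31.6 to 513, and EXPA7, 36.8 to 112) and 0 of 2 for seed storage had a named probe set. LHCB4.3, a protein of the photosystem II antenna, was lower in Zat12 than in wildtype by limma, by -0.72 (adjusted p = 0.00192) untreated and by -0.76 (adjusted p = 0.000952) under H2O2. PRX44, a peroxidase of root hairs, fell with H2O2, with log2 changes of -2.01 in wildtype and -3.08 in Zat12 (limma adjusted p = 2.64e-05 and 1.24e-07). EXPA7 fell in Zat12, by -1.18 (limma adjusted p = 9.42e-05), and its change of -0.48 in wildtype was not called (limma adjusted p = 0.0614). The part of these markers in the results below was not tested.

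Some arrays stood apart in their RNA without poly(A), as read by the control probe set for the cytosolic 25S ribosomal RNA. Its signal was 55.9, 33.0 and 125 in untreated wildtype, 295, 274 and 126 in treated wildtype, 147, 275 and 96.3 in untreated Zat12 and 261, 286 and 133 in treated Zat12. Replicates 1 and 2 of untreated wildtype were thus the lowest of all, and the treated wildtype arrays lay just above the untreated ones. An exact permutation test (two-sided, smallest possible p 0.1) gave a log2 difference of 1.82 for H2O2 in wildtype (p = 0.1, adjusted p = 0.4 over 4 comparisons), 0.45 for H2O2 in Zat12 (p = 0.6), 1.36 for untreated Zat12 against wildtype (p = 0.2) and -0.01 for Zat12 against wildtype under H2O2 (p = 1). The 3′ to 5′ signal ratio of actin, which rises as RNA is degraded, was 6.57 ± 2.83 (SD, n = 3) in untreated wildtype. Its mean lay between 4.85 and 5.35 in the other groups. By replicate, the ratios in untreated wildtype were 9.499, 6.358 and 3.846. Replicates 1 and 2, with the lowest 25S signals, thus had the highest ratios of the 12 arrays, and replicate 3 had the lowest. The part of this ratio in the members' changes was not tested.

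Taken as the median over members of the log2 signal centred on each member's mean, the members stood at -0.65, -0.85 and -0.33 in untreated wildtype, at 0.69, 0.48 and 0.36 in treated wildtype, at 0.33, 0.32 and -0.14 in untreated Zat12 and at 0.20, 0.02 and -0.23 in treated Zat12. Untreated wildtype lay below the other 9 arrays and treated wildtype above them, and the Zat12 groups overlapped each other. The group means were -0.61 ± 0.27, 0.51 ± 0.17, 0.17 ± 0.27 and -0.002 ± 0.22 (SD, n = 3), so that the neighbours treated and untreated Zat12 did not differ beyond their spread. The lowest array within a group was the same by members and by the 25S control in 4 of 4 groups, and the whole order of the 3 arrays was the same in 2 of them. Array by array, wildtype replicate 2 gave the lowest value of 15 members and treated wildtype replicate 1 the highest of 15.

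**Figure D1:**
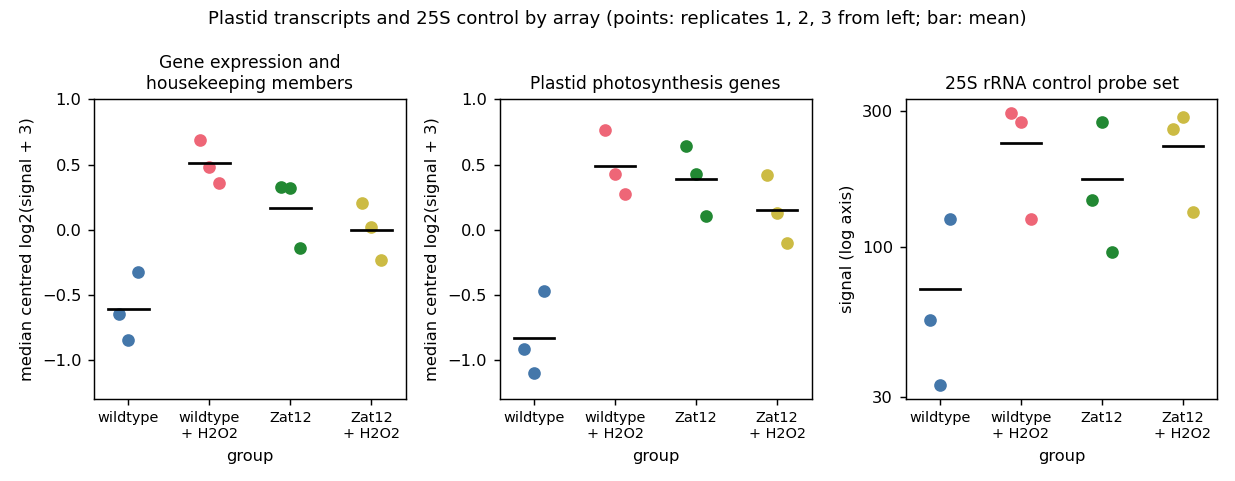
Median centred log2 signal of the members on each of the 12 arrays (y axis) in the left panel, the same for the plastid photosynthesis genes in the middle, and the 25S control signal (log axis) on the right, by group, with bars at the group means. Untreated wildtype, at -0.85 to -0.33, lies below all other arrays, and its replicate 2 has the lowest 25S signal, 33.0.

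**Figure D2:**
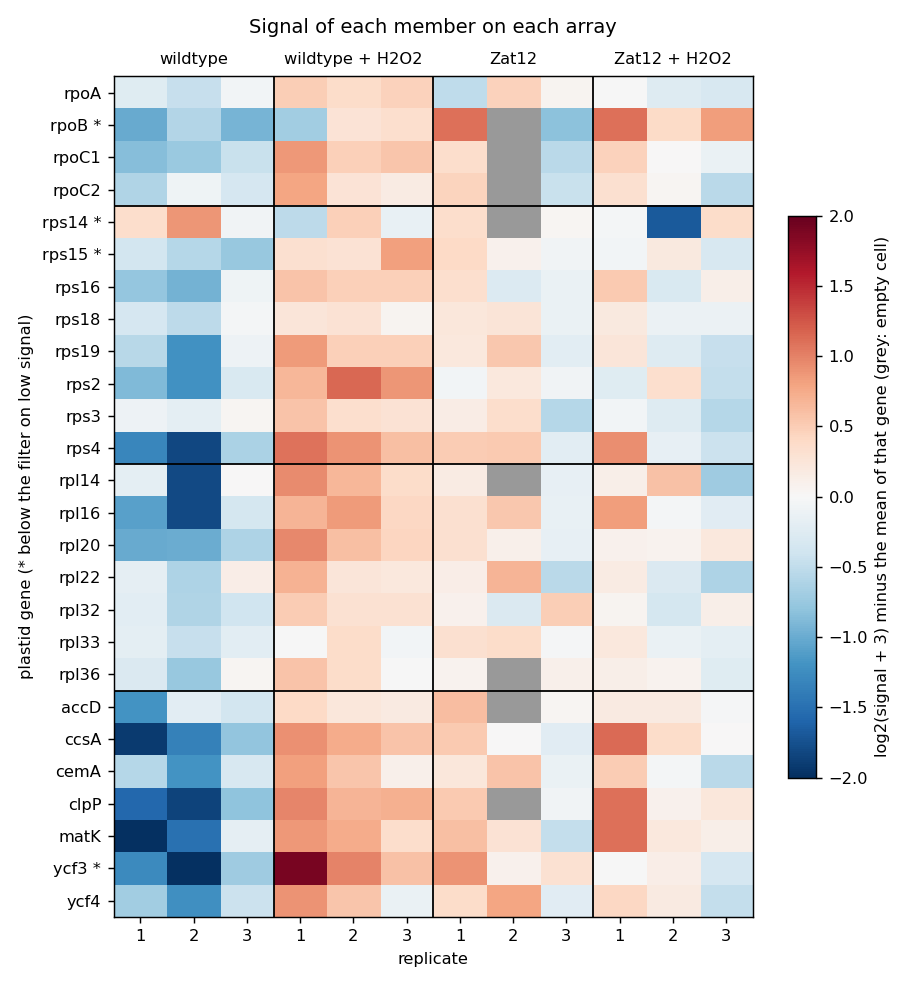
Log2 signal of each member (rows, grouped by role) on each array (columns), centred on the mean of that member; empty cells of Zat12 replicate 2 are grey. Untreated wildtype is low and treated wildtype high for most rows, while rps14 and rpoB do not follow.

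In wildtype, most of the members were higher after 1 hour of H2O2. By limma, 18 of the 22 tested were called higher and 0 lower, where 9.59% of all probe sets tested were called higher and 12.4% lower. The largest estimates were those for clpP, the protease subunit, at 4.57-fold, for rps4 at 4.33-fold and for ccsA, which serves cytochrome assembly, at 4.26-fold. The median log2 fold change of the 22 was 1.21, with a range from 0.39 to 2.19, and that of all probe sets tested was -0.07. Over all 26 members, without any filter, the treated arrays all lay above the untreated ones for 23, against 11.9% of all probe sets, and all below for 0, against 16.4%; rpoB, rps14 and rpl36 overlapped.

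Among the RNA polymerase subunits, rpoA and rpoC1 rose in treated wildtype, and rpoC2 did not pass the test. rpoA encodes the alpha subunit, on which the enzyme assembles, and its signal was 903.5, 779 and 1035 in untreated wildtype, 1499.7, 1384.5 and 1481 in treated wildtype, 752, 1480.5 and 1114 in untreated Zat12 and 1064, 890.0 and 857 in treated Zat12. Treated wildtype lay above untreated wildtype without overlap, and above treated Zat12, while untreated Zat12 ranged from the lowest value of the 12 to near the highest. The change in wildtype was 0.69 (SE 0.18, adjusted p = 0.00915). rpoC1, for the beta′ subunit, read 27.5, 30.3 and 37.6 in untreated wildtype, 98.3, 74.1 and 78.3 in treated wildtype, 67.5 and 35.3 in untreated Zat12 and 72.9, 52.5 and 47.6 in treated Zat12. Each treated wildtype array was above every untreated wildtype array, by 1.31 (SE 0.22, adjusted p = 0.00036), and above every treated Zat12 array.

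For rpoC2, which encodes the beta′′ subunit, the signals were 19.3, 29.1 and 23.9 in untreated wildtype, 55.6, 38.3 and 35.0 in treated wildtype, 43.1 and 21.9 in untreated Zat12 and 39.5, 32.0 and 20.3 in treated Zat12. The wildtype groups did not overlap, but the change of 0.75 (SE 0.28, adjusted p = 0.0699) missed the threshold. rpoB, the beta subunit that with beta′ forms the catalytic centre, was near the bottom of the scale, at 1.56, 3.12 and 1.80 in untreated wildtype, 2.66, 8.03 and 8.52 in treated wildtype, 16.6 and 2.19 in untreated Zat12 and 16.5, 8.90 and 13.3 in treated Zat12. It was not tested, the wildtype groups overlapped, and treated Zat12 lay above treated wildtype.

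Of the small ribosomal subunit proteins, 5 of the 6 tested rose in treated wildtype, with a median of 1.17, and rps3 did not pass. rps4, whose bacterial counterpart binds 16S rRNA early in assembly, read 109, 75.5 and 176 in untreated wildtype, 583, 515 and 416 in treated wildtype, 389, 396 and 237 in untreated Zat12 and 523, 245 and 203 in treated Zat12. All untreated wildtype arrays were the lowest of the 12 and the change was 2.11 (SE 0.31, adjusted p = 6.35e-05). The rps2 signal was 53.6, 42.5 and 81.4 in untreated wildtype, 164, 229 and 189 in treated wildtype, 98.3, 118 and 96.9 in untreated Zat12 and 85.6, 129 and 72.2 in treated Zat12. Treated wildtype stood above all other arrays of the study here, at 194 ± 33.0 (SD, n = 3) against 59.1 ± 20.0 (SD, n = 3) in untreated wildtype, a change of 1.70 (SE 0.22, adjusted p = 1.4e-05).

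At the other end of the range, rps18 read 474, 415 and 584.5 in untreated wildtype, 711, 736 and 620.2 in treated wildtype, 699, 715 and 546 in untreated Zat12 and 688, 549.9 and 552 in treated Zat12. The treated wildtype arrays were above the untreated ones by a small margin, and the change was 0.50 (SE 0.14, adjusted p = 0.0169). For rps3, a protein at the entry of the mRNA channel, the signals were 1158, 1081 and 1271 in untreated wildtype, 1842, 1568 and 1517 in treated wildtype, 1368, 1588 and 834 in untreated Zat12 and 1193, 1042 and 838 in treated Zat12. The wildtype groups did not overlap, yet the change of 0.49 (SE 0.18, adjusted p = 0.0658) was not called. Of the remaining members, rps19 rose by 1.23 and rps16 by 1.105 (limma adjusted p = 0.00106 and 0.00433). The untested rps15 ran from 14.4 to 19.9 in untreated and from 33.0 to 48.9 in treated wildtype without overlap. rps14, also untested, ran from 17.9 to 37.5 and from 12.3 to 27.6, with overlap, and was the 1 member whose mean was lower in treated than in untreated wildtype.

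Of the large ribosomal subunit proteins, 5 of the 7 tested rose, with a median of 0.78, and rpl22 and rpl33 did not pass. rpl16, which lies near the tRNA sites of the ribosome, read 323, 194 and 536 in untreated wildtype, 1099, 1243 and 920.2 in treated wildtype, 859.5, 994 and 621 in untreated Zat12 and 1226, 669.5 and 587 in treated Zat12. Treated wildtype was above untreated wildtype without overlap, by 1.73 (SE 0.29, adjusted p = 0.000322). rpl20, whose bacterial counterpart is needed early in assembly of the large subunit, read 12.9, 13.2 and 18.1 in untreated wildtype, 59.8, 45.7 and 40.6 in treated wildtype, 37.3, 31.5 and 25.7 in untreated Zat12 and 31.1, 31.0 and 34.2 in treated Zat12. Its untreated wildtype arrays were the 3 lowest of the 12, and the change was 1.54 (SE 0.22, adjusted p = 5.51e-05).

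rpl22, a protein of the ribosomal exit tunnel, gave 473, 348 and 588 in untreated wildtype, 874, 632 and 619 in treated wildtype, 591, 862 and 367 in untreated Zat12 and 600.3, 439 and 348 in treated Zat12. The wildtype groups were apart, but the change of 0.60 (SE 0.26, adjusted p = 0.104) was not called. For rpl33 the values were 2018, 1680.5 and 2009 in untreated wildtype, 2309.8, 2973 and 2223 in treated wildtype, 2896, 2994 and 2287 in untreated Zat12 and 2677, 2099 and 2031 in treated Zat12, and the change of 0.39 (SE 0.14, adjusted p = 0.0566) was the smallest among the 22. The untreated wildtype arrays were the lowest of the 12 for rpl33 too, by a narrow margin. rpl32 rose by 0.78, rpl14 by 1.32 and rpl36 by 0.65 (limma adjusted p = 0.00247, 0.0168 and 0.0159). For rpl36, the call stood although 1 treated array, at 379.9, lay under the highest untreated array, at 393.

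**Figure D3:**
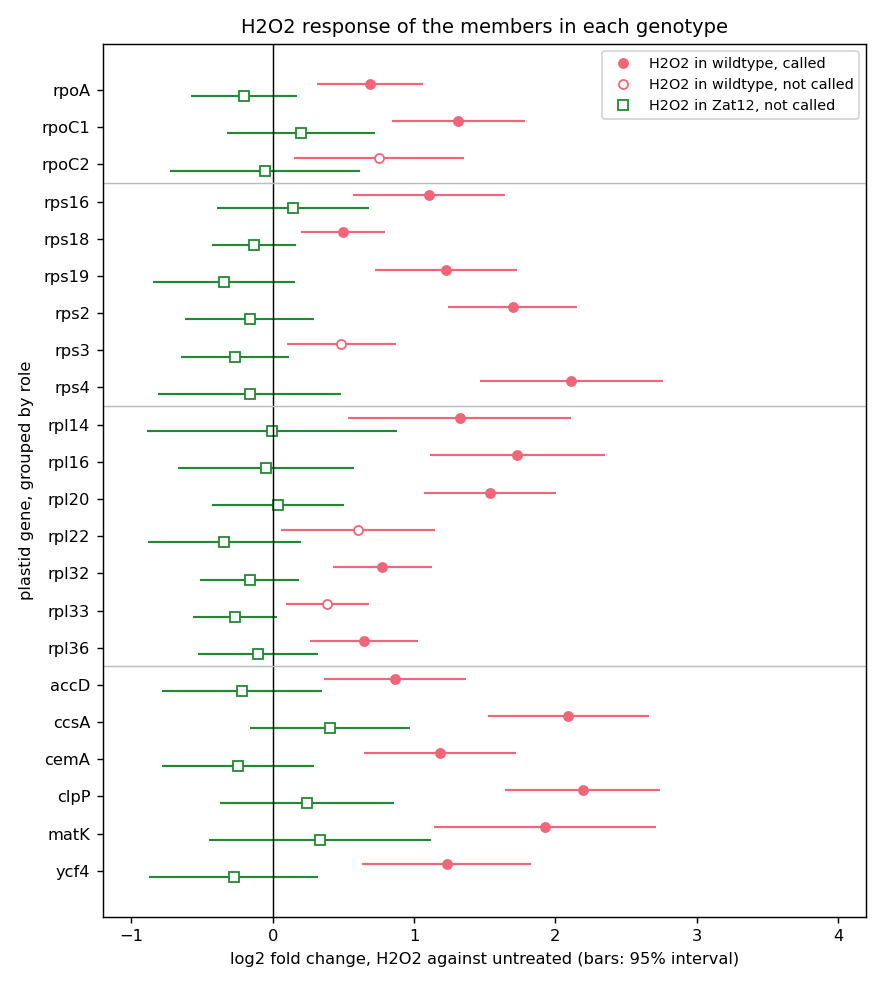
Log2 fold change with H2O2 of each member tested (x axis, bars are 95% intervals) in wildtype (circles, filled where called) and in Zat12 (squares), with the members grouped by role on the y axis. In wildtype all 22 lie above 0, between 0.39 and 2.19, and in Zat12 all intervals include 0.

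The other 6 members tested, all of different function, each rose in treated wildtype, with a median of 1.58. clpP encodes the proteolytic subunit of the Clp protease, the main soluble protease of the plastid, and its signal was 150.4, 123 and 257 in untreated wildtype, 886, 722 and 738 in treated wildtype, 651 and 426.5 in untreated Zat12 and 967, 477 and 529.5 in treated Zat12. The untreated wildtype arrays were the lowest of all, and the change was 2.19 (SE 0.26, adjusted p = 8.51e-06). ccsA, needed for attaching haem to c-type cytochromes, read 107, 160.1 and 238 in untreated wildtype, 780.5, 691 and 612 in treated wildtype, 591, 414 and 349.6 in untreated Zat12 and 909, 529.7 and 416 in treated Zat12. Here too the 3 untreated wildtype arrays were the lowest, with a change of 2.09 (SE 0.27, adjusted p = 1.59e-05). matK, the maturase that helps splice plastid group II introns, varied widely between replicates of untreated wildtype, at 177, 281 and 701 in untreated wildtype, 1452, 1335 and 1016 in treated wildtype, 1204.5, 968 and 572.5 in untreated Zat12 and 1707, 916 and 858.5 in treated Zat12. Its wildtype groups did not overlap, and the change was 1.93 (SE 0.37, adjusted p = 0.00103).

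cemA, a protein of the inner envelope, read 225.5, 146 and 269.9 in untreated wildtype, 595, 496 and 362 in treated wildtype, 392, 502 and 307 in untreated Zat12 and 477, 328 and 231 in treated Zat12. The treated wildtype arrays were above the untreated ones, by 1.19 (SE 0.25, adjusted p = 0.00256). ycf4, an assembly factor of photosystem I, read 96.1, 65.5 and 116 in untreated wildtype, 296, 234.5 and 144 in treated wildtype, 203, 275 and 135 in untreated Zat12 and 211, 179 and 112 in treated Zat12. The wildtype groups were again apart, and the change was 1.23 (SE 0.28, adjusted p = 0.00428). accD, the plastid-encoded subunit of the acetyl-CoA carboxylase of fatty acid synthesis, read 15.9, 34.4 and 30.5 in untreated wildtype, 54.4, 47.6 and 46.4 in treated wildtype, 63.7 and 41.4 in untreated Zat12 and 46.0, 46.0 and 39.8 in treated Zat12. Its treated wildtype arrays lay within 46.4 to 54.4, above the untreated ones, by 0.87 (SE 0.24, adjusted p = 0.0146).

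ycf3, like ycf4 an assembly factor of photosystem I, fell under the filter, at 7.43, 1.24 and 12.4 in untreated wildtype, 91.2, 47.0 and 34.8 in treated wildtype, 43.8, 23.7 and 28.2 in untreated Zat12 and 22.0, 24.8 and 17.1 in treated Zat12. Every untreated wildtype array was below every other array. In a fit with no filter it was called higher in treated wildtype, by 2.68 (limma adjusted p = 0.00115), a size that depends on the offset at signals this low.

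With single arrays left out, 13 of the 18 calls in wildtype stood each time, and those of accD, rps18, rpl14, rpl36 and rpl20 did not. rpl20, whose mean lay just above the filter, fell under it and was not tested without treated wildtype replicate 1 or 2, the group in which it was highest. For accD the limma adjusted p was 0.0715 without untreated wildtype replicate 1, where its change dropped from 0.87 to 0.56, and 0.0617 without treated wildtype replicate 1. For rps18 it lay between 0.052 and 0.0688 without untreated wildtype replicate 1 or 2 or treated wildtype replicate 1 or 2. For rpl14 it was 0.0642 without untreated wildtype replicate 2, where the change dropped from 1.32 to 0.76, and 0.0739 without treated wildtype replicate 1. For rpl36 it was 0.07 without untreated wildtype replicate 2, where the change was 0.43, and 0.0862 without treated wildtype replicate 1.

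**Figure D4:**
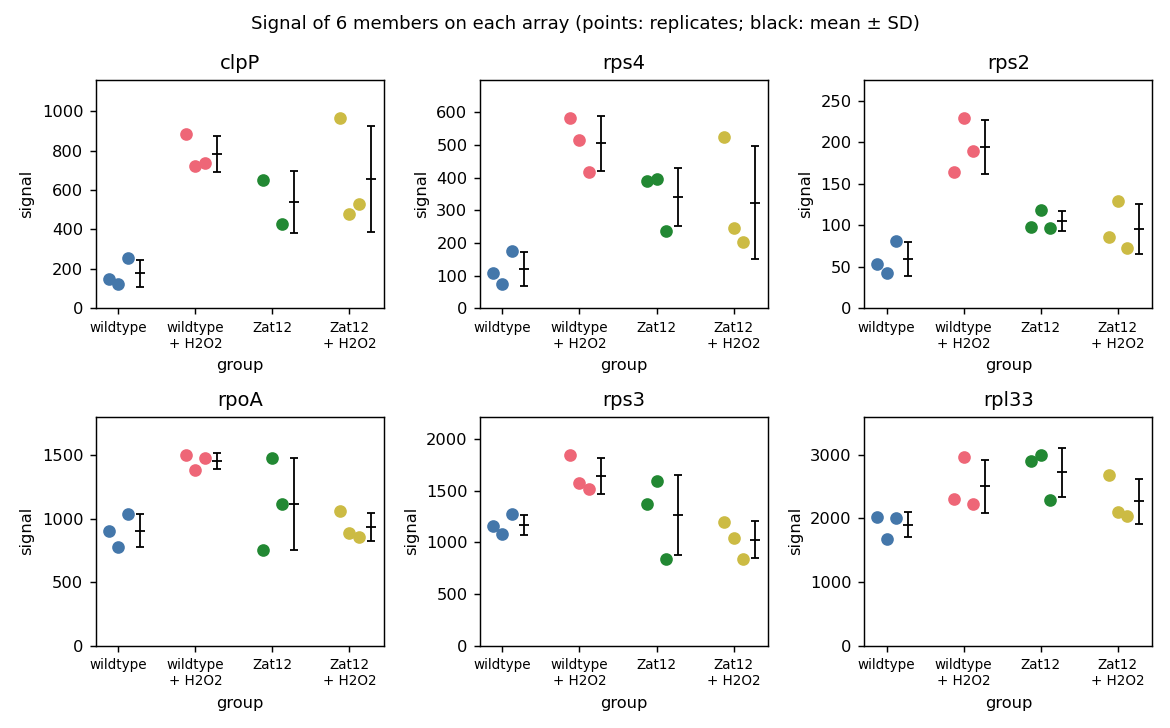
Signal (y axis, linear, from 0) of clpP, rps4, rps2, rpoA, rps3 and rpl33 on each array, by group, with the mean and SD beside the points. For rps2 the 3 treated wildtype arrays, from 164 to 229, lie above all other arrays, and for clpP the untreated wildtype arrays, from 123 to 257, lie below them.

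In Zat12, H2O2 changed none of the members by this test. Called were 0 of 22 in either direction, where 8.16% of all probe sets tested were called higher and 9.12% lower. The unadjusted p from limma was below 0.05 for 0 of the 22, beside 4045 of all 13647 probe sets tested. The median was -0.15, beside -0.09 over all probe sets tested, and treated and untreated arrays overlapped for all 26 members, where they lay apart for 11.5% of all probe sets upwards and 18.8% downwards. The largest estimates were 0.41 for ccsA (95% interval -0.16 to 0.97) and -0.34 for rps19 (95% interval -0.84 to 0.16). For clpP, which rose in wildtype, the estimate was 0.24 (95% interval -0.37 to 0.86), and for rps4 it was -0.16 (95% interval -0.81 to 0.49). These intervals leave room for changes of moderate size in either direction. Without untreated Zat12 replicate 3, rps3 was called lower, by -0.54, and the median was -0.24; it was also -0.24 without treated Zat12 replicate 1, -0.06 and -0.04 without untreated Zat12 replicates 1 and 2, and 0.011 without treated Zat12 replicate 3.

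Before any treatment, 5 of the 22 members were higher in Zat12 than in wildtype by limma and 0 lower, where 0.725% of all probe sets tested were called higher and 0.498% lower. They were clpP at 1.63 (SE 0.29, adjusted p = 0.0102), rps4 at 1.53 (SE 0.31, adjusted p = 0.0213), ccsA at 1.45 (SE 0.27, adjusted p = 0.0126), rpl16 at 1.32 (SE 0.29, adjusted p = 0.0369) and rpl20 at 0.96 (SE 0.22, adjusted p = 0.0428). For clpP the estimate rests on 2 untreated Zat12 arrays, since replicate 2 has no value for it. No RNA polymerase subunit was called. The estimates of the 22 ran from 0.06 for rps3 to 1.63, with a median of 0.74. The unadjusted p from limma was below 0.05 for 16 of them, beside 1644 of all 13647 probe sets tested. Over all 26 members, the untreated Zat12 arrays all lay above the untreated wildtype arrays for 13, against 8.44% of all probe sets, and all below for 0, against 7.75%. This comparison uses the same 3 untreated wildtype arrays as the H2O2 response of wildtype, and the values of the 2 are therefore not independent.

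These 5 calls were not stable to single arrays. Without untreated Zat12 replicate 1, ccsA, rps4, rpl16 and rpl20 were not called, with limma adjusted p from 0.0996 for ccsA to 0.197 for rpl20. clpP, which has no value on untreated Zat12 replicate 2, then rested on 1 untreated Zat12 array, and its change was 1.33. Without untreated wildtype replicate 1 the call of clpP alone remained, and without untreated wildtype replicate 2 or untreated Zat12 replicate 2 there were 2 calls. Leaving out untreated Zat12 replicate 2 cannot move the difference of clpP, which has no value there. Leaving out untreated wildtype replicate 3, the array with the highest 25S signal of its group, gave 10 calls, with matK at 1.96, rps2 at 1.08, rps19 at 1.06, ycf4 at 1.27 and cemA at 1.102 added. The share of all probe sets called with an array left out is not given here for this comparison, so these counts cannot be set against it. The call of rpl20 was also lost, with limma adjusted p from 0.0516 to 0.0587, without untreated Zat12 replicate 3, treated wildtype replicate 3 or any 1 of the treated Zat12 arrays; the treated arrays enter the shared spread but not the difference. Without treated wildtype replicate 1 or 2, or with the compared groups alone, rpl20 fell under the filter and was not tested.

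Under H2O2, rps2 was lower in Zat12 than in wildtype, and no other member passed the test. Its mean was 95.6 ± 29.7 (SD, n = 3) in treated Zat12 and 194 ± 33.0 (SD, n = 3) in treated wildtype, a difference of -1.03 (SE 0.22, adjusted p = 0.0171). Of all probe sets tested, 1.40% were called lower and 1.52% higher. The estimates of the 22 members were all below 0, from -1.03 to -0.14 with a median of -0.46. Over all 13647 probe sets tested, 7071 were below 0. Treated Zat12 lay wholly below treated wildtype for 11 of the 26 members, against 9.79% of all probe sets, and wholly above it for rpoB, against 8.87%. These 11 included 4 small ribosomal subunit proteins (rps2, rps3, rps15, rps19), 3 large ones (rpl20, rpl22, rpl32) and the polymerase subunits rpoA and rpoC1, beside accD and ycf3. The nearest to a call were rps3 at -0.69 (SE 0.18, adjusted p = 0.0501), rpoA at -0.64 (SE 0.18, adjusted p = 0.0612) and rps19 at -0.76 (SE 0.24, adjusted p = 0.0937). The 25S control differed least between these groups, at 0.993-fold. The rps2 call was lost without treated wildtype replicate 2 (limma adjusted p = 0.0719), treated Zat12 replicate 1 (0.0709) or treated Zat12 replicate 3 (0.0937), with differences of -0.90, -0.97 and -0.85.

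The difference between the H2O2 responses, Zat12 minus wildtype, was tested as an interaction. It was called for 1 member, rps2, at -1.86 (SE 0.31, adjusted p = 0.0181), among the 0.110% of all probe sets tested that were called lower, while 0.00% were called higher. In wildtype rps2 rose by 1.70, and in Zat12 its change was -0.16 (95% interval -0.62 to 0.30). All 22 estimates were below 0, from -2.27 for rps4 to -0.63 for rps18 with a median of -1.22. Over all 13647 probe sets tested, 7065 were below 0. The unadjusted p from limma was below 0.05 for 21 of the 22 and for 971 of the 13647. Close to the threshold were rps4 with adjusted p = 0.0558, clpP with 0.0783 at -1.95 and rpl20 with 0.0912 at -1.50. The rps2 call was lost without untreated wildtype replicate 1 (limma adjusted p = 0.0566) or 2 (0.0637), treated wildtype replicate 2 (0.0652), untreated Zat12 replicate 2 (0.0604) or treated Zat12 replicate 3 (0.0765), at -1.82, -1.66, -1.73, -1.77 and -1.69. Without untreated wildtype replicate 3, 8 members were called, rps2, rps4, clpP, rps19, rpl16, ccsA, matK and rpl20, and without treated Zat12 replicate 1, 6 were. The shares of all probe sets called in these fits are not given here.

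With the log2 signal of the 25S control as a covariate, a member's change is estimated at equal 25S signal. For H2O2 in wildtype, 6 of the 18 calls then stood, for clpP at 1.45 (limma adjusted p = 0.00419), ccsA at 1.53 (0.00513), rps4 at 1.15 (0.0161), rps2 at 1.12 (0.00465), rpl20 at 1.24 (0.014) and rpl32 at 0.99 (0.00654), where 6.37% of all probe sets tested were called higher. The median of the 22 dropped from 1.21 to 0.55, and the estimates for rpl14 and rpl36 turned to -0.08 and -0.02, neither called. For untreated Zat12 against wildtype 0 members were called, with a median of 0.33, where 0.227% of all probe sets were called higher and 0.125% lower. For the interaction 0 members were called, with a median of -0.80, where 0.00% of all probe sets were called higher and 0.0586% lower. Under H2O2, the mean log2 25S signal differed between the genotypes by -0.01. There 7 members were called lower in Zat12, namely rps2, rps19, rps3, rpoA, rpl22, cemA and rps4. The median was -0.46 as before, and 2.29% of all probe sets were called lower. With H2O2 in Zat12, 5 members (rps19, rpl22, rpl36, cemA and ycf4) were called lower, with a median of -0.30 and 12.0% of all probe sets called lower.

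Members that are neighbours on the plastid genome had estimates of unequal size. Runs of neighbours were taken from gene order alone, without regard to strand, so members of a run need not share a transcript. In the run rpl14, rpl16, rps3, rpl22, rps19, the H2O2 change in wildtype was 1.32, 1.73, 0.49, 0.60 and 1.23, and the 95% interval of rps3, 0.10 to 0.87, did not meet that of rpl16, 1.11 to 2.35. In the run rpl33, rps18, rpl20 the changes were 0.39, 0.50 and 1.54. In the run rps2, rpoC2, rpoC1 they were 1.70, 0.75 and 1.31. As background, the nuclear-encoded polymerase is known to read the rpo genes of this run, while rps2 is known to be transcribed with atp genes on its other side. The part of this in the changes was not tested. The pairs ycf4 and cemA, at 1.23 and 1.19, and rpl32 and ccsA, at 0.78 and 2.09, lay close together and far apart, respectively. Differences within runs were not tested, and they compare probe sets, whose response to the same change can differ.

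**Figure D5:**
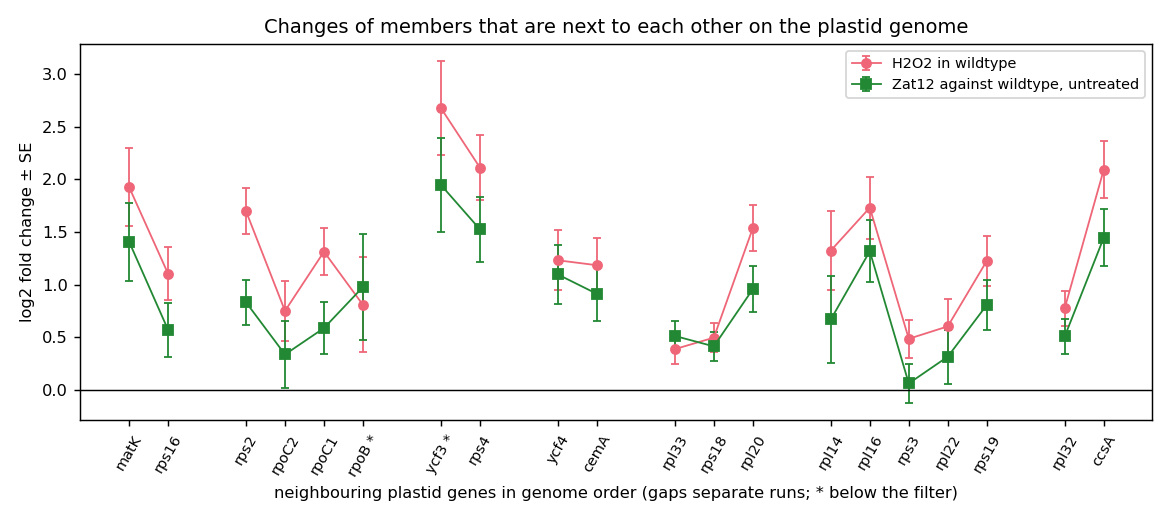
Log2 fold change (y axis, bars are SE) of H2O2 in wildtype (circles) and of untreated Zat12 against wildtype (squares) for the members in each run of neighbouring plastid genes (x axis, genome order, a star marks members below the filter). For H2O2 in wildtype, within the run from rpl14 to rps19 the estimates range from 0.49 for rps3 to 1.73 for rpl16.

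The nuclear genes that work with the members were set beside them. Of 34 nuclear genes for plastid ribosomal proteins listed, 10 had a named probe set, all tested. By limma 0 of the 10 were called in the H2O2 response of wildtype, with a median of 0.02. The unadjusted p was below 0.05 for 1 of them, beside 4711 of all 13647 probe sets tested. Under H2O2, RPS6 and RPS10, both of the small subunit, were lower in Zat12 than in wildtype, by -0.40 (limma adjusted p = 0.0316) and -0.36 (0.0381). The median over the 10 was -0.24, and 1.40% of all probe sets tested were called lower. Of 30 nuclear partners of the other plastid-encoded proteins listed, 5 were tested (CLPP4 and CLPR3 of the Clp protease, CCS1, PYG7 and the splicing factor CAF1). Of these, limma called 0 in any comparison. The unadjusted p was below 0.05 for 0 to 2 of the 5, beside 971 to 4711 of all 13647 probe sets tested. Only 1 of 25 listed polymerase-associated factors and sigma factors had a named probe set, below the filter, and 0 of 5 for RNA turnover had one.

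The plastid-encoded photosynthesis genes were measured on the same arrays. Of 34 of them tested, 27 rose with H2O2 in wildtype, with a median of 1.24, where 9.59% of all probe sets tested were called higher. With H2O2 in Zat12 limma called 0. The unadjusted p was then below 0.05 for 4, beside 4045 of all 13647 probe sets tested. In untreated Zat12 against wildtype, 22 of the 34 were called higher, with a median of 1.39, beside 5 of the 22 members with a median of 0.74; whether the lists differ was not tested. The interaction was called lower for 11 of the 34, with a median of -1.58, beside 1 of the 22 members with a median of -1.22, out of 15 calls in all. Ranked by Pearson correlation with the members' median level over the 12 arrays, among 7338 probe sets with 1 gene, the 5 most alike were psbH (0.971), ccb382 (0.967, 11 arrays), petB (0.961), atpA (0.958) and atpF (0.949). Of these, psbH, petB, atpA and atpF are plastid genes of photosystem II, the cytochrome b6f complex and the ATP synthase. The other, ccb382, is a mitochondrial gene absent from the gene table used here, and mitochondrial genes were not compared as a list. All these points share the arrays and their 25S signals. Among the members, rps4 followed the median of the others most closely, at 0.972, and rps14 least, at -0.381.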

How the data were processed

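ATH1 arrays of 12 seedling RNAs were used. The deposited intensity is the linear signal of MAS5, per the submitters' processing notes, whose version is not given in the sources used here. From the values it can be seen that the authors scaled each array to the same average (2% trimmed mean 100.01 on 11 arrays and 100.1 on Zat12 replicate 2). That array has 6408 empty cells, 28.1% of its probe sets, which were left empty. Genes came from the platform annotation, with names and plastid gene order from the RefSeq table of assembly TAIR10.1; no coordinates are given, since the table of values names no build.

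No further normalization was applied, and log2 was taken after adding an offset of 3, near the 10th percentile of the signals. Probe sets whose mean log2 exceeded the 40th percentile, 4.96 or a signal of 28.1, were tested. limma 3.58.1 (R 4.3.3, lmFit and eBayes with trend) fitted 4 groups and 5 contrasts on 13647 probe sets, with Benjamini-Hochberg adjustment over all of them. Fold changes at low signal are understated by the offset. The code was run on simulated arrays with known changes. For H2O2 in Zat12 it recovered 34.3% of 1.5-fold and 73.1% of 2-fold changes, and 7.43% of its calls were false. For untreated Zat12 against wildtype these were 34.3%, 82.1% and 9.43%. False calls were 3.87% for H2O2 in wildtype and 3.85% for Zat12 against wildtype under H2O2. The simulated probe sets varied independently, with no shift shared across an array. These rates therefore do not cover shifts common to many members, such as those that go with the 25S signal. Alternatives were other scalings, offsets, filters and thresholds, no trend, the compared groups only, the 25S signal as a covariate, a block for the replicate number, and leaving out single arrays. Deviations from the group means correlated at r above 0.1 in 7 of 18 same-numbered pairs of arrays (median 0.047). They did so in 4 of 36 other pairs (median -0.028). Whether the numbers pair the arrays cannot be told from this, and the main fit has no block.

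Values on every array are given for each rpo member, the 7 other members, and the 2 highest and 2 lowest tested rps and rpl members by their H2O2 change in wildtype. From nuclear lists, up to 3 called genes are named, and 5 probe sets by likeness. The members, lists (7, with 104 genes) and tests were chosen with earlier results of these data known.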

Additional observations from a re-analysis of the deposited data

Results flagged for a closer look

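The small subunit gene rps2 was the 1 member called in the test of whether wildtype and Zat12 respond unequally to H2O2, among 15 probe sets called in all, 11 of which were plastid photosynthesis genes. The difference of its H2O2 responses, Zat12 minus wildtype, was -1.86 on the log2 scale (SE 0.31, limma adjusted p = 0.0181). The signals behind it were 53.6, 42.5 and 81.4 in untreated wildtype, 164, 229 and 189 in treated wildtype, 98.3, 118 and 96.9 in untreated Zat12 and 85.6, 129 and 72.2 in treated Zat12. All 3 treated wildtype arrays lay above all 3 untreated ones, while the Zat12 groups overlapped. The 25S signal was lowest in untreated wildtype, and with it as a covariate the difference was -1.42 (SE 0.27, limma adjusted p = 0.09). Without untreated Zat12 replicate 2, the array with many empty cells, the difference was -1.77 (limma adjusted p = 0.0604).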

How the results depend on the processing

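The limits are the 3 arrays per group, the filter, and untreated Zat12 with 8 members on 2 arrays; a signal near the offset, as for rpoB, gives no usable fold. For H2O2 in wildtype, 18 members higher with a median of 1.21 became 6 and 0.55 with the 25S covariate, and 13 to 20 and 0.94 to 1.39 with single arrays left out; the covariate turned rpl36 to -0.019 and rpl14 to -0.081. For H2O2 in Zat12, 0 lower became 5 with the covariate and 0 to 1 with arrays left out, and the median of -0.15 ran from -0.24 to 0.011, the last without treated Zat12 replicate 3. In untreated Zat12 against wildtype, 5 higher became 0 with no filter, 1 with no trend, 3 with only the groups compared (rpl20 not tested), 0 at a threshold of 0.01, 0 with the covariate and 0 to 10 with arrays left out, and the median of 0.74 became 0.33 with the covariate and 0.54 to 1.02 with arrays left out. Under H2O2, 1 lower in Zat12 became 2 with quantile scaling, 2 with 4 times the offset, 0 with no filter, 3 with the filter at the 60th percentile, 5 with only the groups compared, 0 at the threshold of 0.01, 7 with the covariate, 2 with the replicate block and 0 to 4 with arrays left out, where the median ran from -0.64 to -0.28. For the interaction, 1 lower became 2 with median scaling, 2 with 4 times the offset, 0 with no filter, 2 at the 60th percentile, 0 with no trend, 0 at the threshold of 0.01, 0 with the covariate, 2 with the replicate block and 0 to 8 with arrays left out, and the median of -1.22 became -0.80 with the covariate and -1.52 to -1.02 with arrays left out. Whether the replicate numbers pair the arrays is not known, and with the replicate block 20 members were called higher in treated wildtype and 5 in untreated Zat12. The cause of these changes was not tested, except that fewer or more probe sets tested, or fewer arrays, change the adjustment by construction. Where the share of all probe sets called in a setting is not given, a count of members may move with the calls over the whole array. The interaction uses all groups, so a fit on the compared groups was not run for it. The other scalings and offsets kept the direction of every median. Median scaling and scaling without plastid probe sets, chosen for the 25S control after seeing the data, kept the direction of its 4 differences.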

Other observations

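The 7 probe sets that match both inverted repeat copies of a plastid gene were left out of the members because they have no single gene, and they are not named for the same reason. Of these, 5 were tested. With H2O2 in wildtype 3 were called higher by limma, with a median of 1.25, where 9.59% of all probe sets tested were called higher. With H2O2 in Zat12 1 was called lower, with a median of -0.43, where 9.12% of all were. In untreated Zat12 against wildtype 2 were called higher, with a median of 0.83, where 0.725% of all probe sets tested were. Under H2O2 1 was called lower in Zat12, where 1.40% of all probe sets tested were. The interaction was called lower for 2, with a median of -1.49, where 0.110% of all were.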
